A study of Mus musculus with 24 samples.

Results

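The genes described here are 46 genes of the complement system and of blood clotting, chosen by name from the 23972 genes measured in mouse liver: 25 of complement and 21 of clotting and clot breakdown. The rule goes by gene name, and all 46 were found in the table. The list was drawn up with earlier results of these data known. RNA was sequenced from whole livers of 24 female mice in 4 groups. Control mice carried the floxed Lmna allele without Adipoq-Cre (Lmna fl/fl Adipoq-Cre-). LmnaADKO mice carried the same allele with Adipoq-Cre, which is driven by the promoter of adiponectin and deletes Lmna in adipocytes, so that their hepatocytes were not a target of the deletion and their fat tissue was. Mice of each genotype received either PBS vehicle or an AAV8 vector that carries FGF21, which the sample labels call the rescue. There were 7 control mice on vehicle, 3 control mice on FGF21, 6 LmnaADKO mice on vehicle and 8 LmnaADKO mice on FGF21. All were kept at 22 °C, were 12 to 14 weeks old at the start, ate a diet with 60% of its energy as fat for 4 weeks before the injection, and were killed 8 weeks after it. The vehicle held no vector, so FGF21 and the receipt of an AAV cannot be told apart.

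Most of these genes encode proteins that hepatocytes secrete into the blood. Complement is a chain of proteases. It is started by C1 on antibody (the classical pathway), by mannose-binding lectins on sugars (the lectin pathway) or on surfaces by factors B and D (the alternative pathway). All of them cleave C3, and the cleaved fragments mark targets, call in leukocytes through receptors, and lead to a pore made of C5 to C9. Clotting starts when tissue factor meets factor VII, or by the contact factors XII, XI and prekallikrein. Both arms activate factor X, which makes thrombin from prothrombin, and thrombin turns fibrinogen into fibrin. Antithrombin, heparin cofactor II, protein C and protein S hold this in check, and plasmin, made from plasminogen, dissolves the clot.

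Library totals were 19863304 to 21510054 counts. Lmna mRNA in whole liver had medians of 17.4 CPM (counts per 1e6 mapped counts, with TMM library sizes) in controls and 25.9 in LmnaADKO mice on vehicle, so it does not check an adipocyte deletion, and Fgf21 mRNA (group medians between 2.80 and 8.04 CPM) did not set the treated groups apart. The labels number each animal with 3 or 4 digits, and the series so formed runs with genotype: 6 of 7 vehicle controls have 3 digits against 1 of 6 LmnaADKO mice on vehicle, and no FGF21 control does. Differences within each series are given beside several results, and each series has a single library in either the control or the LmnaADKO vehicle group. A set of 3 libraries stood apart from the rest (control vehicle 3, control FGF21 3 and LmnaADKO FGF21 7). Relative to their genotype's median, their slope of log2 level on log2 exon length was -0.33 to -0.15. In the other 21 it was -0.11 to 0.13. Control vehicle 1 had high levels of several acute-phase genes. Saa1 was at 1691 CPM against 39.4 to 142 in the other vehicle controls, but Saa3 was at 10.7 against 5.83 to 15.2. That library was the highest of its group for 25 of the 46 members. The labelled tissue was borne out by albumin, transthyretin, transferrin, Apoa1, Apob and Cps1, which summed to 84815 CPM or more in every library.

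**Figure D1:**
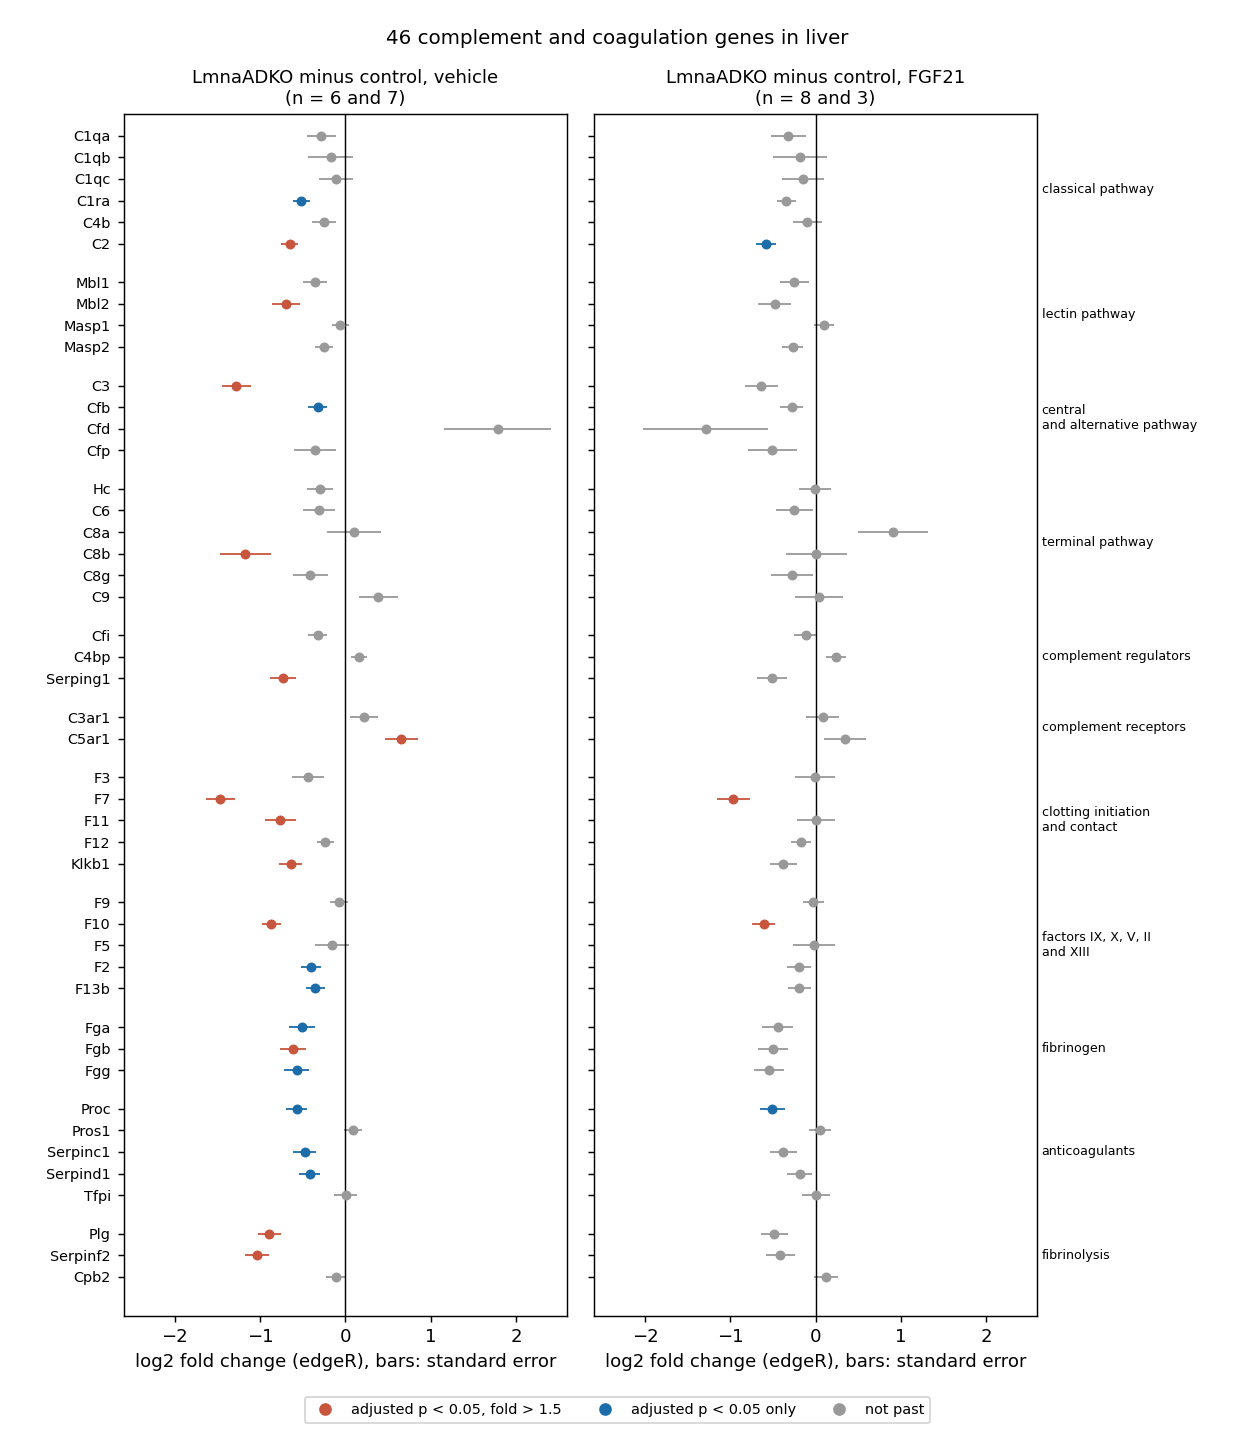
Log2 fold change (horizontal axis) with its standard error for each of the 46 genes, grouped by role, for LmnaADKO against control livers on vehicle (left) and on FGF21 (right). Red marks an adjusted p under 0.05 with a fold above 1.5 and blue an adjusted p under 0.05 alone; on vehicle 21 of the 22 coloured genes lie left of 0, and on FGF21 all 4 do.

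On vehicle, LmnaADKO livers held less mRNA of many of these genes than control livers. The largest called falls were in F7 (factor VII) to 0.363 of the control level, C3 to 0.412, C8b (a chain of the complement pore) to 0.444, Serpinf2 (antiplasmin, the inhibitor of plasmin) to 0.489, Plg (plasminogen) to 0.540 and F10 (factor X) to 0.549. In edgeR's quasi-likelihood test over all genes, 13 of the 46 (28.3%) had a Benjamini-Hochberg adjusted p under 0.05 with a fold above 1.5, of which 12 were lower and 1, the C5a receptor C5ar1, was higher. Over all genes tested that share was 8.48%, with 3.36% lower and 5.12% higher, and 26.1% of the members were lower. The members were chosen with earlier results of these data known, and the part of that choice in these shares was not tested. Members are more abundant than most genes, with a median log2 CPM of 7.79 against 0.41. Among the 12492 genes whose average log2 CPM exceeds 0, which include 45 of the 46 members, the share was 11.7%, and 5% were lower. On the adjusted p alone, 22 members passed, 21 of them lower, which is 47.8% against 15.1% of all genes, or 45.7% against 6.76% for lower alone. The median log2 fold change of the 46 was -0.35, against 0.00 over all genes, and 38 of them had a value below 0. For 15 members every LmnaADKO library lay below every control library, which 3.73% of all genes did, and for 0 members did every one lie above (4.22% of all genes). Neither the adjusted p alone nor the absence of overlap was counted among the more abundant genes, here or on FGF21. In bulk tissue, fewer cells of a type and less RNA per cell cannot be told apart. The p-values weigh a difference of groups against the spread between these animals. The 46 genes together held 3.61 to 5.88% of all counted reads in vehicle controls and 2.7 to 3.03% in LmnaADKO livers on vehicle, ranges that do not overlap.

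Levels between genes were compared per length, as RPKM (CPM per kilobase of all annotated exon bases of a gene). That length joins the exons of all transcripts, such as 8546 bases for Serpinc1 and 5143 for C3. It can exceed the length of the mRNA in liver, so the order depends on the annotation. In vehicle controls C3 had the highest median at 1729 RPKM, then the fibrinogen chains Fgg at 1234, Fga at 1201 and Fgb at 985, and Plg at 861. At the other end were C3ar1 at 1.41, Tfpi at 1.33, C5ar1 at 1 and Cfd at 0.211 RPKM. The genes that fell thus ranged from the member highest on this measure to some of modest level.

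C3 is the protein on which all routes of complement activation meet. Its level was 7829 to 13869 CPM in the 7 vehicle controls (median 8892) and 3389 to 4309.7 in the 6 LmnaADKO livers on vehicle (median 3852), so the highest LmnaADKO library was well below the lowest control. The log2 fold change was -1.28 ± 0.17 (SE; adjusted p = 6.43e-06), and without control vehicle 1 it was -1.17 (adjusted p = 1.54e-05). Within the 3-digit and the 4-digit animals it was -1.28 and -1.21. Cfb, the factor B protease of the alternative pathway, passed the adjusted p with a smaller change: its range was 1421 to 1911 CPM (median 1626) in controls and 1116 to 1495 (median 1301) in LmnaADKO livers, a log2 fold change of -0.32 ± 0.11 (adjusted p = 0.0454), and the ranges overlap. Cfp (properdin, which steadies the alternative convertase) had -0.36 (adjusted p = 0.380).

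Cfd, factor D or adipsin, is known as a product of adipocytes, and it was the member with the lowest level. Counts were 1 to 6 in 6 vehicle controls and 41 in the other, control vehicle 2, and they were 26 to 43 in the 6 LmnaADKO livers on vehicle. As CPM the medians were 0.195 and 1.5, and the log2 fold change was 1.79 ± 0.63 (adjusted p = 0.0568). Without control vehicle 2 it was 3.07 and called, and with all libraries it was also called in DESeq2 (1.81, adjusted p = 0.0232), with a filter on low counts and with the length slope in the model. That library and control FGF21 1, with 57 counts of Cfd, also held the most Adipoq, 13 and 9 counts, while the other 22 libraries had 0 to 3. In LmnaADKO livers on vehicle Adipoq was at 0 to 3 counts. The part of adipocyte RNA in the values of Cfd was not tested. On FGF21, LmnaADKO livers had 0.0464 to 0.855 CPM (1 to 19 counts), and all 8 were below all 6 on vehicle. The log2 fold change was -1.66 ± 0.60 (unadjusted p = 0.0107, adjusted p = 0.704). Cfd was the only 1 of the 46 without overlap in this comparison, and the share of all genes without overlap was not counted.

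In the classical pathway, C2, the protease of the C3 convertase, and C1ra, a protease of C1, were lower and the 3 chains of C1q were not called. C2 was at 99.9 to 120.4 CPM in vehicle controls (median 107) and at 55.8 to 79.2 in LmnaADKO livers (median 71.4), with no overlap and a log2 fold change of -0.65 ± 0.10 (adjusted p = 5.74e-05). C1ra was at 269 to 349 CPM (median 325) against 201 to 237 (median 217), again with no overlap, and its fold did not reach 1.5 (-0.51 ± 0.10, adjusted p = 0.000381). C1q is made mainly by macrophages. C1qa was at 71.1 to 104 CPM (median 93.2) in controls and 53.8 to 91.3 (median 75.7) in LmnaADKO livers. C1qb was at 79.5 to 143 (median 115) against 79.4 to 139 (median 91.0), and C1qc at 92 to 136 (median 107) against 82.1 to 138 (median 99.1). All 3 pairs of ranges overlap, with 2, 1 and 2 of 6 LmnaADKO libraries below every control, and the log2 fold changes were -0.28 ± 0.17, -0.17 and -0.11 (adjusted p = 0.302, 0.736 and 0.794). C4b, which C1 cleaves, had -0.25 ± 0.14 (adjusted p = 0.272).

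In the lectin pathway 1 of 4 members was called. Mbl2, mannose-binding lectin C, was at 406 to 606 CPM in vehicle controls (median 489) and at 231 to 402 in LmnaADKO livers (median 276). The highest LmnaADKO library was just under the lowest control, and the log2 fold change was -0.69 ± 0.16 (adjusted p = 0.004). Its companion Mbl1 had -0.36 ± 0.14 (adjusted p = 0.0877), and the lectin proteases Masp1 and Masp2 had -0.06 (adjusted p = 0.755) and -0.25 (adjusted p = 0.101).

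The chains of C8, which are joined in 1 protein of the pore, did not move together. C8b was at 38.2 to 128 CPM in vehicle controls (median 48.0) and at 20.8 to 47.7 in LmnaADKO livers (median 27.1), where 5 of 6 libraries were below every control (log2 fold change -1.17 ± 0.30, adjusted p = 0.0100). C8a was at 62.7 to 393 (median 114) against 139 to 173 (median 159), with 0.10 ± 0.32 (adjusted p = 0.892). C8g was at 295 to 554 (median 339) against 219.8 to 345 (median 276), with -0.41 ± 0.21 (adjusted p = 0.197). The high ends of C8a and C8b in controls are both control vehicle 1. Without it C8b had -0.93 (adjusted p = 0.0235) and C8a 0.58 (adjusted p = 0.0732). The ratio of C8b to C8a in CPM does not depend on library scaling, and it was 0.326 to 0.683 in vehicle controls, 0.363 to 0.567 in FGF21 controls, 0.121 to 0.344 in LmnaADKO livers on vehicle and 0.126 to 0.323 on FGF21. This ratio was formed after the values were seen and was not tested. The genes lie 11130 bases apart on opposite strands (GRCm38 chr4:104766317-104804548 for C8b and chr4:104815679-104876398 for C8a). Of the other terminal members, Hc (complement C5) had -0.30 (adjusted p = 0.214), C6 -0.31 (adjusted p = 0.290) and C9 0.38 (adjusted p = 0.290).

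**Figure D2:**
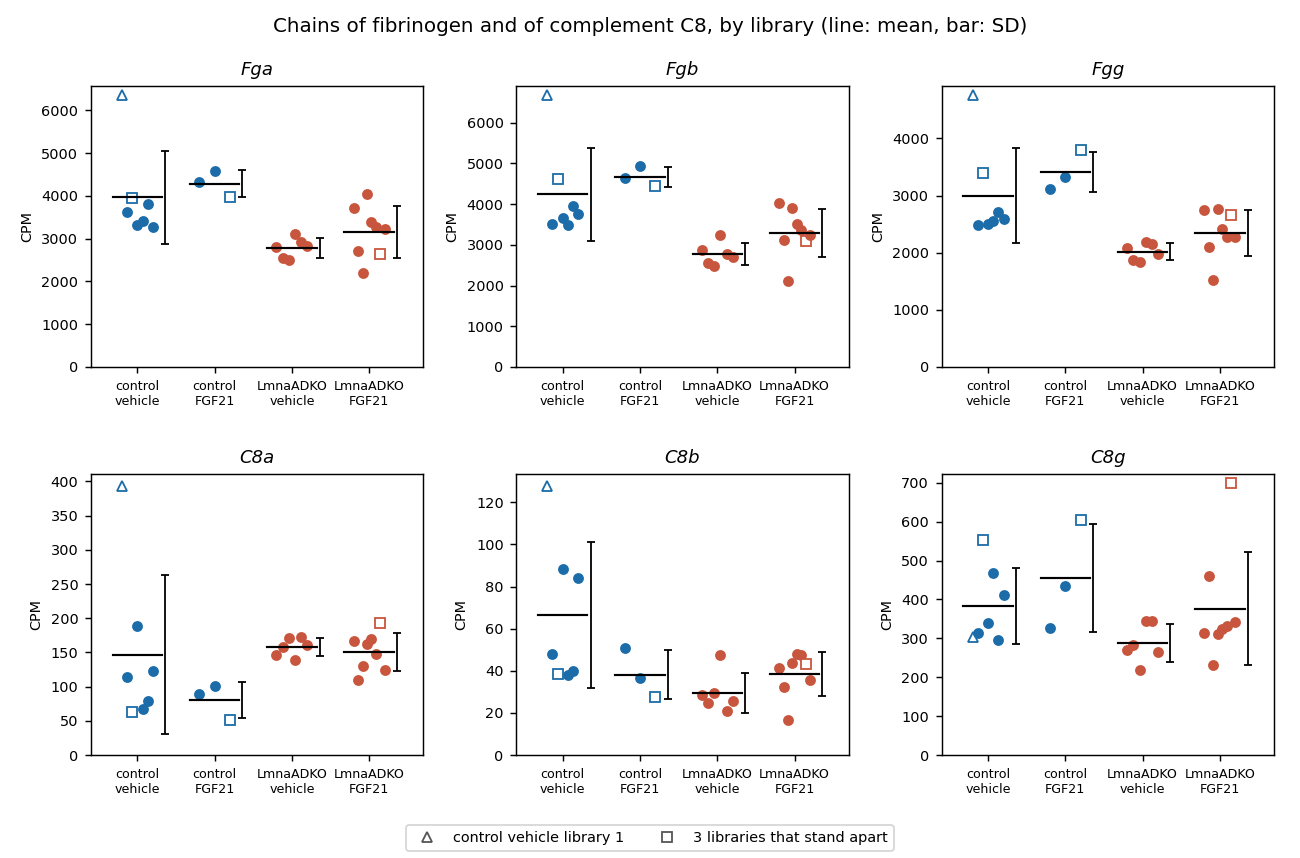
Levels (CPM, vertical axis) of the 3 fibrinogen chains and the 3 C8 chains in each library of the 4 groups, with the group mean as a line and the SD as a bar. The triangle is control vehicle 1, the highest vehicle control for all genes shown but C8g, and squares are the 3 libraries that stand apart. The fibrinogen chains are lower in LmnaADKO livers on vehicle in step, whereas C8b is lower and C8a is not.

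Among the 3 members that regulate complement, Serping1, the C1 inhibitor that also blocks plasma kallikrein, was the only one called. It was at 759.5 to 1308 CPM in vehicle controls (median 872) and at 455 to 592 in LmnaADKO livers (median 559.9), with no overlap and a log2 fold change of -0.73 ± 0.15 (adjusted p = 0.00124). Cfi, which cuts C3b and C4b, had -0.32 ± 0.11 (adjusted p = 0.0505), just outside the threshold, and in DESeq2 its adjusted p was 0.00734. Its partner C4bp had 0.16 (adjusted p = 0.289). The receptor C5ar1, found on neutrophils and macrophages, was at 1.66 to 3.51 CPM (median 2.58) in controls and 2.78 to 5.43 (median 4.10) in LmnaADKO livers. Its log2 fold change was 0.66 ± 0.20 (adjusted p = 0.0215), with 4 of 6 libraries above every control. That call was lost without LmnaADKO vehicle 1, 3 or 6, without control vehicle 3, and with the number series in the model, and the difference was 0.97 within the 3-digit and 0.09 within the 4-digit animals. C3ar1 had 0.22 (adjusted p = 0.419).

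**Figure D3:**
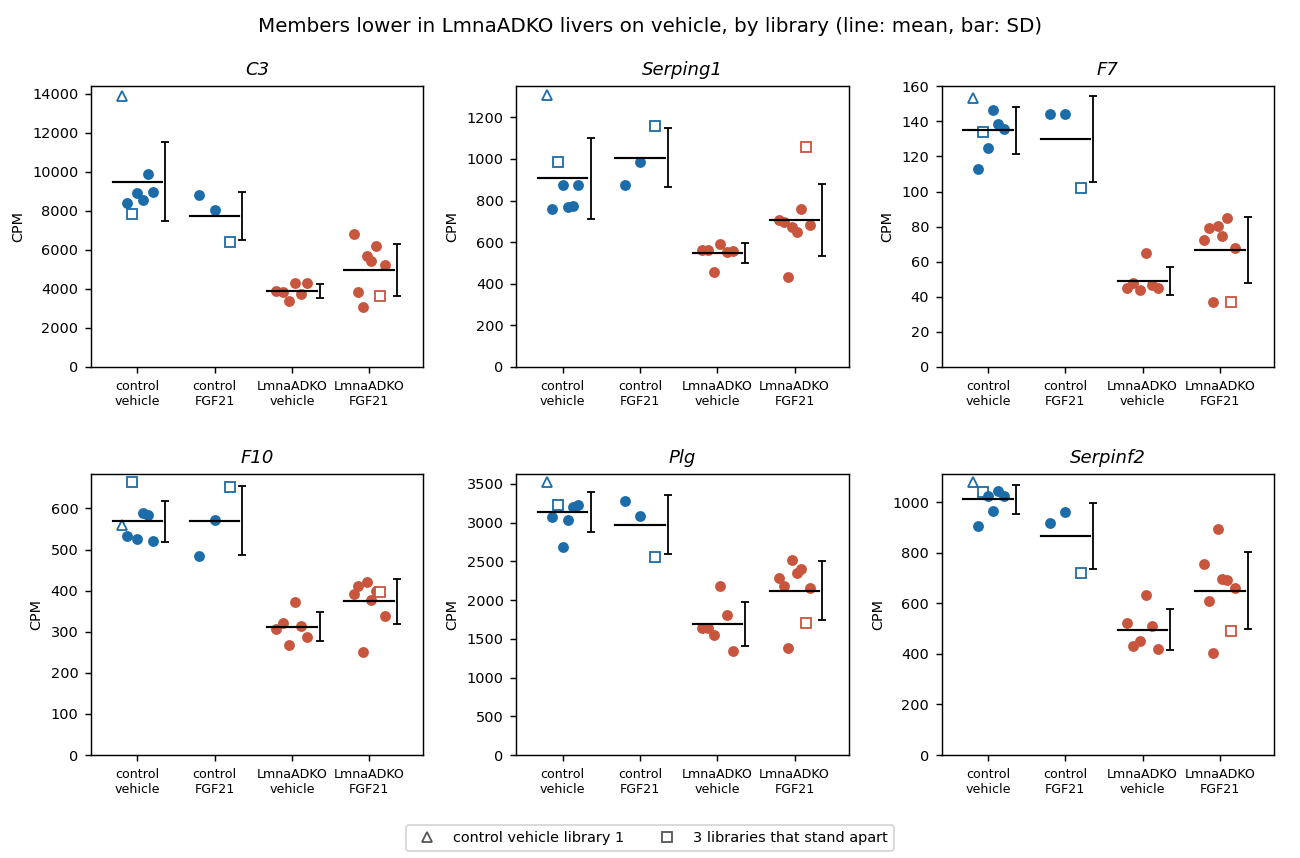
Levels (CPM, vertical axis) of C3, Serping1, F7, F10, Plg and Serpinf2 in each library of the 4 groups, with the group mean as a line and the SD as a bar. Triangle and squares are control vehicle 1 and the 3 libraries that stand apart. For each of the 6 genes all LmnaADKO libraries on vehicle lie below all vehicle controls, and on FGF21 this holds for F7, F10 and Plg.

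Among the clotting members F7 changed most. F7, the factor that tissue factor binds, was at 113 to 153 CPM in vehicle controls (median 136) and at 44.0 to 65.1 in LmnaADKO livers (median 45.9). The log2 fold change was -1.46 ± 0.17 (adjusted p = 8.13e-07), and it was -1.57 and -1.46 within the 3-digit and 4-digit animals. F10, where both arms meet, was at 522 to 663 CPM (median 561) against 269 to 372 (median 311), with -0.87 ± 0.12 (adjusted p = 7.36e-06) and -0.90 and -0.75 within the series. Neither gene had overlapping groups. They are neighbours on the same strand, F7 at GRCm38 chr8:13026034-13035809 and F10 at chr8:13037308-13056676, with 1498 bases between them. The nearest genes outside F7, F10 and their neighbour Proz were Pcid2, lower at -0.37 (adjusted p = 0.0208), and Atp11a at -0.46 (adjusted p = 0.208). The ratio of F10 to F7, formed after the values were seen and not tested, was 3.66 to 4.96 in vehicle controls and 5.71 to 6.80 in LmnaADKO livers, so F7 was the lower of the pair in relative terms. The 250 bases before the annotated start of each, from RefSeq on GRCm38.p6, are shown because these are the neighbouring clotting genes that fell most, with those of C3. Capitals mark matches on either strand to the letters of 3 motifs of liver factors: CAAAGT (HNF4 core), TTNNGCAA (C/EBP) and TTCNNNGAA (STAT).
F7 (chr8:13025784-13026033, + strand): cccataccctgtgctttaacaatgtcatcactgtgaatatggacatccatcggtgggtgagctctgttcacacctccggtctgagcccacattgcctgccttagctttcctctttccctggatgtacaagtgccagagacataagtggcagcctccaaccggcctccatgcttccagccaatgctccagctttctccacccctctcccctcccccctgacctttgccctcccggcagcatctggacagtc
F10 (chr8:13037058-13037307, + strand): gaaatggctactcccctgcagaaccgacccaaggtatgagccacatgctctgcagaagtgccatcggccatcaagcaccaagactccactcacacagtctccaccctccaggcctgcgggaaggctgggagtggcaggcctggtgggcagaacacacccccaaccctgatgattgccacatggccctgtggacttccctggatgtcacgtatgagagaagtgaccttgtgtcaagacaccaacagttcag
C3 (chr17:57228137-57228386, - strand): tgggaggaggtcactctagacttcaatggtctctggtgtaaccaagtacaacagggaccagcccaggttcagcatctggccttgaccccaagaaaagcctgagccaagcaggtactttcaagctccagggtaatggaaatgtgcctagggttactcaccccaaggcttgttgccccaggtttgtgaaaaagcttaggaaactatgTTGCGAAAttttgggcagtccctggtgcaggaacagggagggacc
The windows of F7 and F10 hold none of these letters, and that of C3 holds TTGCGAAA, a C/EBP match, from 45 to 38 bases before the start. Only these letters were searched, so a window without a match may still hold a site with other letters. A match is only a match of letters: over 32851 promoters of the same length 12.6% held CAAAGT, 9.56% TTNNGCAA and 7.02% TTCNNNGAA. Of the 37 members with a promoter in the table, 4, 7 and 6 did, and of the 9 called lower among them, 1, 4 and 1 did.

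The contact factors gave 2 further falls. Klkb1, plasma prekallikrein, was at 233 to 264 CPM in vehicle controls (median 240.3) and at 97.7 to 208 in LmnaADKO livers (median 153), with no overlap and -0.64 ± 0.13 (adjusted p = 0.00118). F11, which lies 4657 bases from it on chromosome 8, was at 30.5 to 51.8 CPM (median 43.8) against 15.9 to 32.1 (median 26.0), with 5 of 6 libraries below every control and -0.76 ± 0.18 (adjusted p = 0.00468). The call of Klkb1 was lost without LmnaADKO vehicle 6. F12 had -0.24 (adjusted p = 0.11), and F3, tissue factor, which is made in the vessel wall rather than secreted, had -0.43 (adjusted p = 0.128).

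The remaining clotting factors had smaller changes than F7 and F10. F2, prothrombin, was at 2015 to 2495 CPM (median 2175) in vehicle controls and 1446 to 1975 (median 1649) in LmnaADKO livers, which do not overlap, with -0.41 ± 0.12 (adjusted p = 0.0171). F13b, the carrier chain of the enzyme that cross-links fibrin, was at 157 to 223 (median 177) against 115 to 179 (median 142), with -0.35 ± 0.11 (adjusted p = 0.0330). F9, the factor lost in haemophilia B, and F5, the cofactor of factor X, had -0.07 (adjusted p = 0.711) and -0.16 (adjusted p = 0.660). No difference was thus detected in F9, which acts upstream of factor X, while F10 itself was called.

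The 3 chains of fibrinogen fell together. Fga was at 3269 to 6363 CPM in vehicle controls (median 3616) and at 2495 to 3102 in LmnaADKO livers (median 2815), with -0.51 ± 0.15 (adjusted p = 0.0200). Fgb was at 3482 to 6673 (median 3753) against 2485 to 3247 (median 2734), with -0.61 ± 0.15 (adjusted p = 0.00544), the only chain past a fold of 1.5. Fgg was at 2487 to 4759 (median 2583) against 1835 to 2185 (median 2036), with -0.57 ± 0.15 (adjusted p = 0.00907). No chain had overlapping groups, and their shares of the sum were 35.4% ± 1.5, 37.8% ± 0.955 and 26.8% ± 0.839 in controls (SD, n = 7) and 36.7% ± 0.521, 36.6% ± 0.918 and 26.7% ± 0.625 in LmnaADKO livers (SD, n = 6). Control vehicle 1 carried part of the size: without it the log2 fold changes were -0.36 (adjusted p = 0.0636), -0.46 (0.0159) and -0.42 (0.0273). Within the 3-digit and 4-digit animals they were -0.50 and -0.24 for Fga, -0.54 and -0.45 for Fgb and -0.51 and -0.37 for Fgg, and with the number series in the model the call of Fgb was lost (-0.57). The genes lie side by side on chromosome 3 (Fgg chr3:83007724-83015049, Fga chr3:83026076-83033627 and Fgb, on the other strand, chr3:83040141-83049863). The nearest genes outside were Lrat, which was higher (0.74, adjusted p = 0.0135), and Plrg1 at 0.00 (adjusted p = 1). The 250 bases before each start are shown because the chains fell in step, with capitals for the same 3 motifs. The RefSeq start of Fga lies inside the span given above, so 77 of its 250 bases do too.
Fga (chr3:83025903-83026152, + strand): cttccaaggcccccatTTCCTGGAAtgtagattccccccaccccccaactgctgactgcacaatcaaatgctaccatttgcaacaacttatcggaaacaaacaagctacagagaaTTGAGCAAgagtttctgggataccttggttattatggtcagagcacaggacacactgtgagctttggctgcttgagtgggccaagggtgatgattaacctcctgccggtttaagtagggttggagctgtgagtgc
Fgb (chr3:83049864-83050113, - strand): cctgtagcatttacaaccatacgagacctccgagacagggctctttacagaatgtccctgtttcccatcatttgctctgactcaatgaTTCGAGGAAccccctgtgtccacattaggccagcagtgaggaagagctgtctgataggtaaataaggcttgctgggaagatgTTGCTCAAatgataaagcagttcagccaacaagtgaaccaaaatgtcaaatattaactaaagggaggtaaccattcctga
Fgg (chr3:83007474-83007723, + strand): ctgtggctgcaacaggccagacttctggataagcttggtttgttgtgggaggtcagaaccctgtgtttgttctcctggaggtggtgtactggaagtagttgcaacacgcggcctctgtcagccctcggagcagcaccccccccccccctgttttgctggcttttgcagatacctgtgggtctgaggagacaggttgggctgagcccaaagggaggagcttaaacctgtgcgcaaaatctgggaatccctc
Fga and Fgb each hold a C/EBP match, at 135 to 128 and 80 to 73 bases before the start, and a STAT match at 234 to 226 and 162 to 154. Fgg holds none of the 3 strings of letters in this window.

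Of the 5 inhibitors of clotting, 3 were lower on the adjusted p, none of them past a fold of 1.5. Proc, protein C, was at 445 to 626 CPM (median 514) in vehicle controls and 297 to 417 (median 345) in LmnaADKO livers, with no overlap and -0.57 ± 0.13 (adjusted p = 0.00203), just outside the fold threshold. Serpinc1, antithrombin, was at 2396 to 3428 (median 2648) against 1666 to 2470.4 (median 1911), with -0.47 ± 0.13 (adjusted p = 0.0155). Serpind1, heparin cofactor II, was at 599 to 733 (median 656) against 390.0 to 658 (median 488), with -0.42 ± 0.12 (adjusted p = 0.0173). Pros1, protein S, had 0.09 (adjusted p = 0.642), and Tfpi, the inhibitor of the tissue factor complex, 0.00 (adjusted p = 1).

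Plasminogen and its main inhibitor fell together. Plg was at 2688 to 3519 CPM (median 3196) in vehicle controls and at 1344 to 2178 (median 1642) in LmnaADKO livers, with -0.89 ± 0.14 (adjusted p = 3.36e-05). Serpinf2 was at 907 to 1078 (median 1026) against 417 to 634 (median 481), with -1.03 ± 0.14 (adjusted p = 1.12e-05). Both had no overlap, and within the 3-digit and 4-digit animals the differences were -0.92 and -0.94 for Plg and -0.94 and -1.08 for Serpinf2. Cpb2, which protects fibrin from plasmin, had -0.11 (adjusted p = 0.566). Clotting factors, their inhibitors and the enzymes of clot breakdown thus included members that fell.

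On FGF21, LmnaADKO livers differed from control livers in the same direction for most members, with fewer calls. Of the 46, 2 were called and both were lower (4.35% against 2.88% of all genes, and 1.26% for lower alone), 4 passed the adjusted p and were lower (8.70% against 3.85% in either direction and 1.71% lower), and 19 had an unadjusted p under 0.05. The share of all genes at that unadjusted p was not counted. Among the 12492 more abundant genes 4.72% were called and 2.02% were lower. The median log2 fold change was -0.22 against 0.02 over all genes, and 35 members were below 0. Of the members called lower on vehicle, C8b and F11 had 0.0103 and 0.00596 on FGF21, and all others were below 0. F7 was at 101.9, 144 and 144 CPM in the 3 controls and at 36.9 to 85.1 (median 73.4) in the 8 LmnaADKO livers, with -0.96 ± 0.19 (adjusted p = 0.00329). F10 was at 485, 572 and 652 against 251 to 421 (median 395), with -0.61 ± 0.14 (adjusted p = 0.00879). C2 (103, 104 and 117 against 55.4 to 90.8) and Proc (502, 547 and 719 against 291 to 543) passed the adjusted p alone, with -0.58 ± 0.12 (adjusted p = 0.00529) and -0.51 ± 0.15 (adjusted p = 0.0479).

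In 8 members every LmnaADKO library on FGF21 was below all 3 controls, which 2.37% of all genes were, and in 2, C8a and C4bp, every one was above, which 2.98% were. C3 was at 6409, 8033 and 8819.8 CPM in FGF21 controls and at 3073 to 6793 (median 5330.1) in LmnaADKO livers, with -0.64 ± 0.20 (adjusted p = 0.0627). Plg was at 2554, 3090.5 and 3277 against 1386 to 2518, with -0.49 ± 0.16 (adjusted p = 0.0820), and Serpinf2 at 719.6, 916 and 962 against 403 to 895, with -0.41 ± 0.17 (adjusted p = 0.186). LmnaADKO FGF21 3 was the lowest of its 8 for 28 of the 46 members, and control FGF21 3, which stands apart, the lowest of its 3 for 23. Without either of these libraries the call of F10 was lost and that of F7 was kept. When only these 2 groups were fitted, both were lost and C8a was called instead, higher (0.90, adjusted p = 0.0487).

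FGF21 against vehicle gave 0 called members in either genotype, in edgeR and in DESeq2. Over all genes the called share was 0.0542% in controls and 0% in LmnaADKO livers. In LmnaADKO livers 9 members had an unadjusted p under 0.05: C3, Serping1, F7, F11, F10, Proc, Plg and Serpinf2, each higher on FGF21, and Cfd, lower. No share of all genes was counted at this unadjusted p, here or below, so such lists are not set against one. The median of the 46 was 0.16. For F7 the medians were 45.9 CPM on vehicle and 73.4 on FGF21, with overlapping ranges and a log2 fold change of 0.45 ± 0.16 (unadjusted p = 0.00905, adjusted p = 0.696). The LmnaADKO livers on vehicle are the same as in the comparison of genotypes, so the 2 sets of values are not independent. In controls 2 members had an unadjusted p under 0.05, C8a and C8b. The test of whether the genotype difference changed with FGF21 called 0 members (0.00417% of all genes; 0 in DESeq2), and 5 had an unadjusted p under 0.05: C3, Cfd, C8b, F11 and Serpinf2. A call on vehicle without one on FGF21 is thus not shown to be a difference between them, and both comparisons of genotype with FGF21 rest on 3 controls.

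Other genes of the same pathways behaved differently. Of 63, 21 were called on vehicle (33.3% against 8.48% of all genes), 15 higher and 6 lower, with a median log2 fold change of 0.01. The 7 other genes of fibrinolysis had 5 higher and 0 lower, the 14 other inhibitors and receptors of clotting 6 higher and 1 lower, the 13 other factors 1 and 2, the 18 other regulators and receptors of complement 2 and 2, and the 11 other complement components 1 and 1. F2r, the thrombin receptor PAR1, was at 9.23 to 15.2 CPM (median 13) in vehicle controls and 22.4 to 36.2 (median 30.6) in LmnaADKO livers, with 1.22 ± 0.15 (adjusted p = 2.6e-06). Anxa2, which holds plasminogen and its activator on cells, was at 13.6 to 37.2 (median 21.7) against 53.8 to 156 (median 135), with 2.48 ± 0.34 (adjusted p = 3.19e-05). Plat, tissue plasminogen activator, was at 0.194 to 1.10 (median 0.499) against 1.41 to 3.89 (median 2.06), with 2.12 ± 0.46 (adjusted p = 0.0022). Thbd, thrombomodulin, was at 2.62 to 4.73 (median 3.31) against 6.25 to 9.58 (median 7.32), with 1.15 ± 0.20 (adjusted p = 0.000236). None of these groups overlap.

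**Figure D4:**
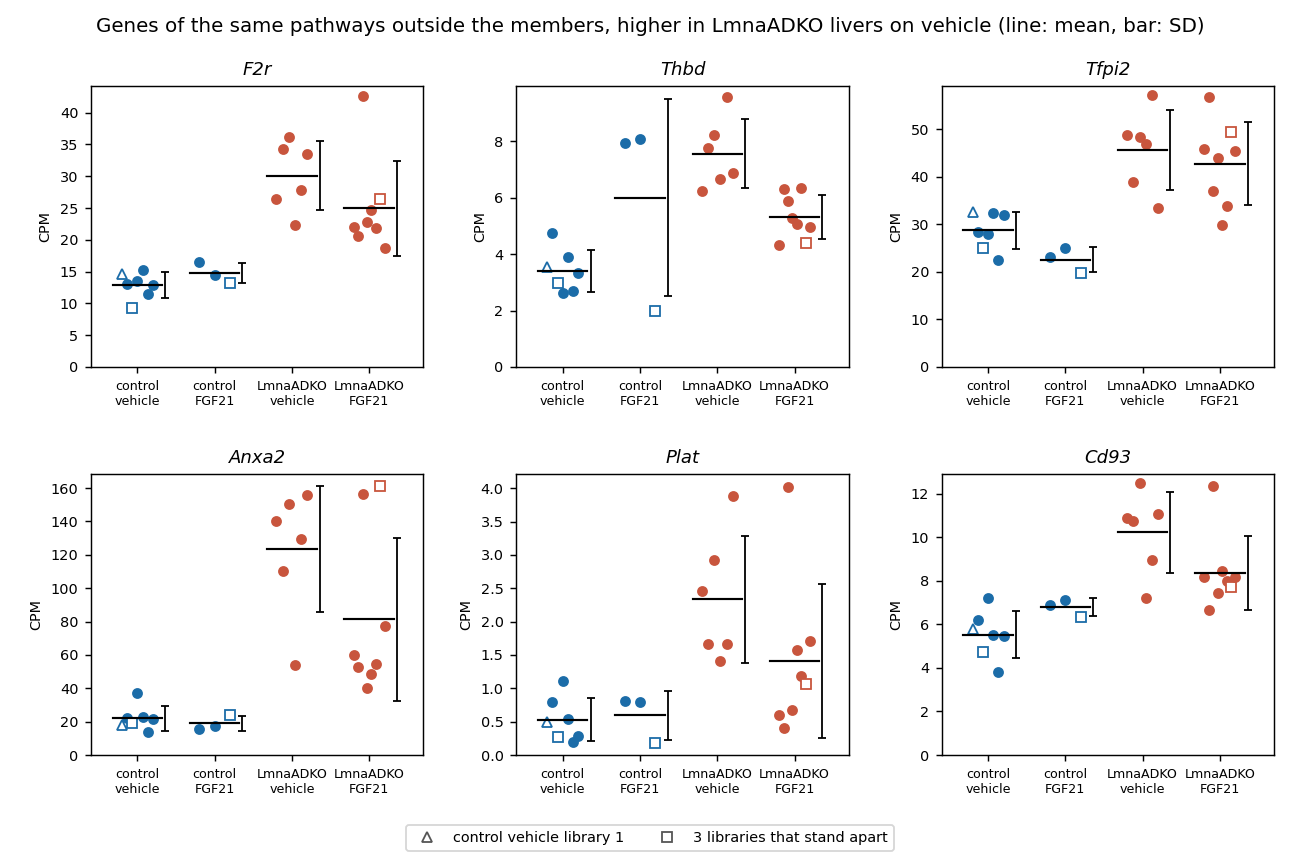
Levels (CPM, vertical axis) of F2r, Thbd, Tfpi2, Anxa2, Plat and Cd93, which are not among the 46, in each library of the 4 groups, with the group mean as a line and the SD as a bar. Their means are higher in LmnaADKO livers on vehicle than in vehicle controls.

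Tfpi2, an inhibitor of plasmin and other proteases, had 0.67 ± 0.13 (adjusted p = 0.000822) and Cd93, a receptor of endothelial and myeloid cells, 0.89 ± 0.14 (adjusted p = 7.85e-05). Lower among the named genes were Vtn, vitronectin, at -0.77 ± 0.13 (adjusted p = 0.00019), Cpn2, a subunit of the carboxypeptidase that inactivates C3a and C5a, at -0.62 ± 0.11 (adjusted p = 0.000269), and Hrg, histidine-rich glycoprotein, at -0.71 ± 0.13 (adjusted p = 0.000381). On FGF21, 5 of the 63 were called (7.94% against 2.88%), 4 higher (1.61% of all genes) and 1 lower, namely F2r (0.76, adjusted p = 0.0228), Anxa2 (2.10, adjusted p = 0.0108), Tfpi2 (0.92, adjusted p = 0.00233), A2m, with 0 to 1 counts in the 3 controls and 4 to 26 in LmnaADKO livers, and Fcna (ficolin A, -0.98, adjusted p = 0.0481), the lower one. C4a, chosen after its values were seen because its sequence is close to that of C4b, was 0.221 to 0.520% of the reads of both in vehicle controls and 0.638 to 0.922% in LmnaADKO livers, and the counting could split such reads between them.

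Of 27 listed regulators and acute-phase genes, 4 were called on vehicle (14.8%, against 8.48% of all genes and 11.7% of the more abundant ones), 2 higher and 2 lower. Pparg, the regulator of fat storage, was at 9.12 to 16.0 (median 11.8) against 17.9 to 27.0 (median 23.0), with 0.90 ± 0.13 (adjusted p = 1.74e-05). Cebpd, a factor of the acute-phase response, had 1.17 ± 0.21 (adjusted p = 0.000452), and in controls it was also higher on FGF21 than on vehicle (1.38, adjusted p = 0.0268). The hepatocyte factors Foxa2 and Onecut1 were the other two, with -0.80 (adjusted p = 0.0035) and -1.23 (adjusted p = 0.0349). Acute-phase genes of the list were not called. Saa1 had -1.22 ± 0.78 (adjusted p = 0.336). That sign was set by control vehicle 1 at 1691 CPM, since the other 6 controls had 39.4 to 142 and LmnaADKO livers 96.4 to 162. Hp (haptoglobin) had 0.35 ± 0.19 (adjusted p = 0.259). Control vehicle 1 held 7685 CPM of Hp, the other 6 controls 2756 to 4096 and LmnaADKO livers on vehicle 4919 to 5964. Every LmnaADKO library on vehicle was thus above every vehicle control but control vehicle 1. Crp had -0.30 ± 0.12 (adjusted p = 0.0926).

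Markers of other cell types moved with genotype in part. On vehicle, the 6 hepatocyte markers summed to 95452 to 150983 CPM in controls and 84815 to 120026 in LmnaADKO livers, with Cps1 called lower and Apob past the adjusted p and higher. The 11 markers of Kupffer cells and macrophages had 0 calls (823 to 1233 against 649 to 1089 CPM in sum), as had the 5 neutrophil, 4 platelet, 6 lymphocyte and 4 cholangiocyte markers. Of 4 markers of lipid-associated macrophages 3 (Gpnmb, Cd9 and Spp1) were higher, with sums of 32.3 to 63.6 and 119 to 252 CPM that do not overlap. Of 7 stellate markers 2 were called higher, of 8 endothelial markers 1, (over all genes 5.12% were called higher), and of 7 adipocyte markers 2, Cidea and Aqp7, while Adipoq, Lep, Plin1 and Retn were at 13 counts or fewer. The part of these cell types in the differences of the 46 genes was not tested.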

How the data were processed

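Liver RNA-seq of 24 mice was taken from the deposited table. Per the labels and methods, the authors trimmed reads with cutadapt 4.8, checked them with FastQC 0.11.8, aligned them with STAR 2.7.8a to GRCm38 with Ensembl 102 and estimated counts per gene with RSEM 1.3.3. The deposited values are RSEM expected (estimated) counts, whole numbers for all 23972 genes, with 0 columns that belong to no sample. Symbols came from the annotation for 23926 genes.

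Groups were taken from the genotype and treatment labels. Counts were analysed as deposited with edgeR 4.0.16 (R 4.3.3): TMM normalization, 1 quasi-likelihood fit of the 4 groups to all genes, and 5 contrasts (genotype on vehicle and on FGF21, FGF21 in each genotype, and their interaction). A gene was called at a Benjamini-Hochberg adjusted p under 0.05 over all genes with a fold above 1.5. The SE of a log2 fold change is its size over the square root of F, and log2 CPM used a prior count of 2. Library totals of 19863304 to 21510054 make counting error small beside animal variation for most members. The closest of 67 within-group pairs of libraries had a variance 14.1 times that of counting noise (chi-square per degree of freedom), so none was counted as a repeat. The fit was first tested on simulated data. Alternatives were DESeq2 1.42.0, its size factors, a filter on low counts, only the groups compared, the number series or the length slope as a covariate, and libraries left out.

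Members and lists were chosen with earlier results of these data known, and the motifs after the differences were seen. All 46 members were named. Values were given for members past the adjusted p and for the chains of C1q, C8 and fibrinogen, and other genes were named where called, at most 12 by smallest p on vehicle, or where a count of 5 or fewer was listed. Promoters (250 bases) were from RefSeq, GRCm38.p6, and matched 37 of 46 members. No sequence is shown for the other members or for Proc. A further gene of the regulator list is not reported here.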

Additional observations from a re-analysis of the deposited data

Results flagged for a closer look

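Dixon's test was run on the CPM of 138 sets of 1 member in 1 group of 6 to 8 libraries. For normal values chance flags about 1 set in 20, but the shape of these values was not checked. In 16 sets a single library lay far from its neighbours. Several of these sets share a library, so they are not separate events.

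Control vehicle 1, the library with high Saa1, was the highest of 7 in 8 sets: C3 at 13869 CPM (next 9883), C4b at 2504 (next 1582), Hc at 921 (next 604), C8a at 393 (next 189), Serping1 at 1308 (next 985), Fga at 6363 (next 3959), Fgb at 6673 (next 4604.5) and Fgg at 4759 (next 3387). C3, Serping1 and the fibrinogen chains are known acute-phase products of the liver, and Saa2 was also high in that library (1638 CPM against 146 or less in all others). The part of an acute-phase state in these values was not tested.

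Other single libraries were control vehicle 2 for Cfd at 1.92 CPM (next 0.292), the library with 13 counts of Adipoq, and control vehicle 3, one of those that stand apart, for F3 at 6.69 (next 4.63). LmnaADKO FGF21 7, which also stands apart, was highest for C1qb at 296 (next 158) and Mbl1 at 231 (next 147). LmnaADKO FGF21 3 was lowest for Klkb1 at 125 (next 181). On vehicle, LmnaADKO 4 was highest for C8b at 47.7 (next 29.6) and F7 at 65.1 (next 47.7), and LmnaADKO 3 lowest for Serping1 at 455 (next 554).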

How the results depend on the processing

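On vehicle, 13 members were called, and 22 on the adjusted p alone. DESeq2, a filter on low counts and the length slope gave 14 each, DESeq2's size factors and the fit of only the groups compared 13, the number series 12, the analysis without the 3 libraries that stand apart 12, and leaving out 1 library at a time 11 to 15. Under these alternatives C3, F7, F10, Plg, Serpinf2, Serping1, C2, Mbl2, C8b and F11 stayed called, Fgb was lost under 3, C5ar1 under 5 and Klkb1 under 1. On FGF21, 2 were called: 4 on the adjusted p alone, 4 in DESeq2, 4 with the filter, 3 with its size factors, 2 with the number series, 2 with the length slope (F10 lost and C3 gained), 1 in the fit of only the groups compared, 1 without the 3 libraries, and 1 to 4 with 1 library left out. F7 was called in 17 of 18 of them, all but the fit of only the groups compared, and F10 in 13 of 18. The count stayed 0 for FGF21 against vehicle in each genotype and for the interaction. Of single values, 31 gained the call, 15 lost it and 4830 stayed on their side of the threshold. Among the last, 268 values of 72 member comparisons, 0 of them called, had the other sign than the main value, such as C8a on vehicle, at -0.02 without the 3 libraries. No called value changed sign. The cause of these changes was not tested. No paired analysis was possible because the labels give each animal its own number. The FGF21 comparison rests on 3 controls, and the part of group size in its lower count was not tested. The number series and genotype are largely shared on vehicle. Counts of Cfd and A2m limit what can be said of them.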
